A study of Mus musculus with 12 samples.

Results

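The mitosis genes are 40 genes whose products carry out or time cell division, taken by symbol from a list of members. That list was chosen with earlier results of these data known, so contrasts with all tested genes are not independent of the choice. All 40 were found in each of the 12 deposited files, among 16145 genes found in at least 1 file. The data are RNA sequencing of mouse bone marrow-derived macrophages (BMDMs), macrophages grown from marrow for 7 days with macrophage colony-stimulating factor (M-CSF), in 4 groups of 3 libraries. The wild-type groups were given hemin (oxidised heme, an iron-containing pigment) at 15 µM for 12 h, vehicle for 12 h, or 120 µM of 4-OI (4-octyl itaconate, itaconate carrying an octyl chain that lets it cross membranes) for 15 h. Cells of the genotype Irg1KO received vehicle for 12 h; this gene, now Acod1, encodes the enzyme that forms itaconate from cis-aconitate. The labels give no age or sex, do not say how the knockout was made, and do not state the number of animals or cultures behind the replicates. The p-values therefore cover the spread among libraries, which may be technical. In comparisons of 4-OI with any other group, the hours differ along with the treatment.

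Mitosis is the division of duplicated chromosomes between daughter cells. Cyclin-dependent kinase 1 with its cyclins starts it, the polo-like and Aurora kinases build the spindle and correct its attachments, kinesin motors move and bundle its microtubules, and kinetochores attach chromosomes to it. The anaphase-promoting complex then frees sister chromatids from each other by leading to the loss of securin and cohesin. Most of these genes are transcribed late in the cell cycle through shared promoter elements, under the DREAM, B-MYB and FOXM1 regulators, so their RNA is high in dividing cells and low in resting ones. M-CSF keeps marrow-derived macrophages in cycle, and their mitosis RNA is a usual readout of how far a culture is still dividing.

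The promoter elements come first, as a description of sequence, and their part in the changes below was not tested. RefSeq promoter windows (build GRCm38.p6, 250 bases before to 50 after the annotated start, so 300 in all) were matched by symbol for 34 of the 40 genes. Aurkb, Tpx2, Smc4, Ccna2, Kif20a and Foxm1 were not matched. Windows were searched on both strands for CCAAT, the box bound by NF-Y, and for TTTGAA and TTTAAA, forms of the cell cycle genes homology region (CHR) bound by the DREAM and B-MYB complexes; CCAAT shares no overlap with the CHR forms in the windows shown. In the lines that follow, the 150 bases directly before the annotated start are given 5′ to 3′ on the gene's strand, with every match in capitals (ATTGG and TTCAAA are matches on the other strand). Ccnb1, Ccnb2, Cdk1 and Plk1 are shown because they drive entry into mitosis, Top2a for its high level, Cdc20 and Kif23 because they fell least and most with 4-OI, and Nuf2 as the kinetochore gene that fell most, which has no match. The narrower window, the pair of elements, the tested-gene background and the genes shown were chosen after the data and the matches were seen.
Ccnb1 (chr13:100786487-100786636, minus strand): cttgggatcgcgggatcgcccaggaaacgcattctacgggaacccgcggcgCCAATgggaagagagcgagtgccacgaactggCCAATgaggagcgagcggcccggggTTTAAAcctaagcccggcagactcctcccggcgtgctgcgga
Ccnb2 (chr9:70421555-70421704, minus strand): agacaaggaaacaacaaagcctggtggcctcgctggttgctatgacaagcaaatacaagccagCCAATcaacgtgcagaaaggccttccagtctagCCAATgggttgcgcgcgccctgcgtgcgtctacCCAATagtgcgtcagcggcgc
Cdk1 (chr10:69352913-69353062, minus strand): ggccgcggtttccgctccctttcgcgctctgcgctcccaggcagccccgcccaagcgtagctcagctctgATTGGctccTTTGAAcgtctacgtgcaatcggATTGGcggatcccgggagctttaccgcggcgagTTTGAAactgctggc
Plk1 (chr7:122159285-122159434, plus strand): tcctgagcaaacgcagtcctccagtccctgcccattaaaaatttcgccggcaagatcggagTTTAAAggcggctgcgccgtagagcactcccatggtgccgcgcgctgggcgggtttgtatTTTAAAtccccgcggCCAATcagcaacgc
Top2a (chr11:99024190-99024339, minus strand): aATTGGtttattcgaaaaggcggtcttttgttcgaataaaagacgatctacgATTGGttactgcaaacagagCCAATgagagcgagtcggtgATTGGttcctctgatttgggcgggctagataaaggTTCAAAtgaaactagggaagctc
Cdc20 (chr4:118437344-118437493, minus strand): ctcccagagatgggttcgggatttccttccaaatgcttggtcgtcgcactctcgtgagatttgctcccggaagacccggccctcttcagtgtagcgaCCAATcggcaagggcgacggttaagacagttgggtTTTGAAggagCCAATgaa
Kif23 (chr9:61946800-61946949, minus strand): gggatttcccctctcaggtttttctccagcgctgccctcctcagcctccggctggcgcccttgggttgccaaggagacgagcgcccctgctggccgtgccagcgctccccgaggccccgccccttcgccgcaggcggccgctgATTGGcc
Nuf2 (chr1:169531465-169531614, minus strand): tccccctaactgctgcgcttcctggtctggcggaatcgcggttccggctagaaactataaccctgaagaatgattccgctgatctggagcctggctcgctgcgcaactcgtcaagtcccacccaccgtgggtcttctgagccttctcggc

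CCAAT was found in 26 of the 34 windows (76.5%) and at least 2 copies in 17 (50.0%), against 37.9% and 12.2% of 27025 promoters of all genes in the RefSeq table. TTTGAA was found in 28 (82.4%), against 18.1% of all promoters. A CHR form within 100 bases before to 50 after the start was found in 28 (82.4%), against 12.9%. Both a CCAAT and such a CHR form were present in 24 (70.6%), against 5.0% of all promoters and 3.3% of the 9697 promoters of genes tested here. In Ccnb1, CCAAT lies at -99 to -95 and at -67 to -63, and TTTAAA at -42 to -37 from the start. Kif23 and Ccnb2 have a TTTGAA just after the start, at 3 to 8 and at 5 to 10 (the start base is 1), outside the stretch printed. Ccnb2 has another TTTGAA at -167 to -162, and Plk1 has one at 31 to 36, also not printed. Further matches of Cdk1 and Top2a lie before the stretch printed. Nusap1 and Nuf2 held none of the 3 motifs in the window, which says only that these letters are not there. These matches are a description of sequence, not a measure of binding.

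Levels between genes were compared on FPKM, which divides counts by transcript length. In wild-type vehicle the highest were Top2a at 81.6 ± 1.37 FPKM (SD, n = 3), Ube2c at 71.2 ± 2.46 and Mki67 at 67.0 ± 1.75, and the lowest Kif15 at 9.15 ± 0.397, Cenpf at 6.10 ± 0.0757 and Knl1 at 6.01 ± 0.196. Ube2c and Mki67 were separated by less than the sum of their SDs, as were Cenpf and Knl1. Top2a stood above 92.3% of the 12148 genes tested and Knl1 above 38.8%. With 4-OI the order at the top changed little, with Ube2c at 29.3 ± 1.73 FPKM, Top2a at 29.1 ± 1.08 and Mki67 at 26.03 ± 0.848, and the first and second of these did not differ beyond their spread.

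All values that follow are TMM-scaled CPM (reads of a gene relative to its library's total), where TMM is edgeR's method of making libraries comparable, and fold changes are log2 with their standard error (SE) from edgeR's quasi-likelihood test over all 12148 genes. Calls were made below 0.05 after Benjamini-Hochberg adjustment across that whole table. Library totals were 9405112 to 22390882 expected counts, and the 40 genes had between 108 and 15223 expected counts in any library. The summed level of the 40 genes was 3975 to 4051 CPM in the 3 wild-type vehicle libraries, 3243 to 3691 with hemin, 3236 to 3381 in the knockout and 1610.3 to 1714 with 4-OI. As shares of the vehicle mean, the group means were 86.1%, 82.1% and 41.5%. The sums of the 4-OI libraries lay far below all others, and those of hemin and the knockout overlapped. In bulk RNA, fewer dividing cells and less mitotic RNA per dividing cell cannot be told apart. For all 40 genes the mean was lowest with 4-OI. In 27 of them the knockout came next, then hemin, then vehicle; in 10 hemin was second lowest, and in 3 (Cenpa, Cdc20 and Ube2c) the hemin mean was above vehicle.

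**Figure D1:**
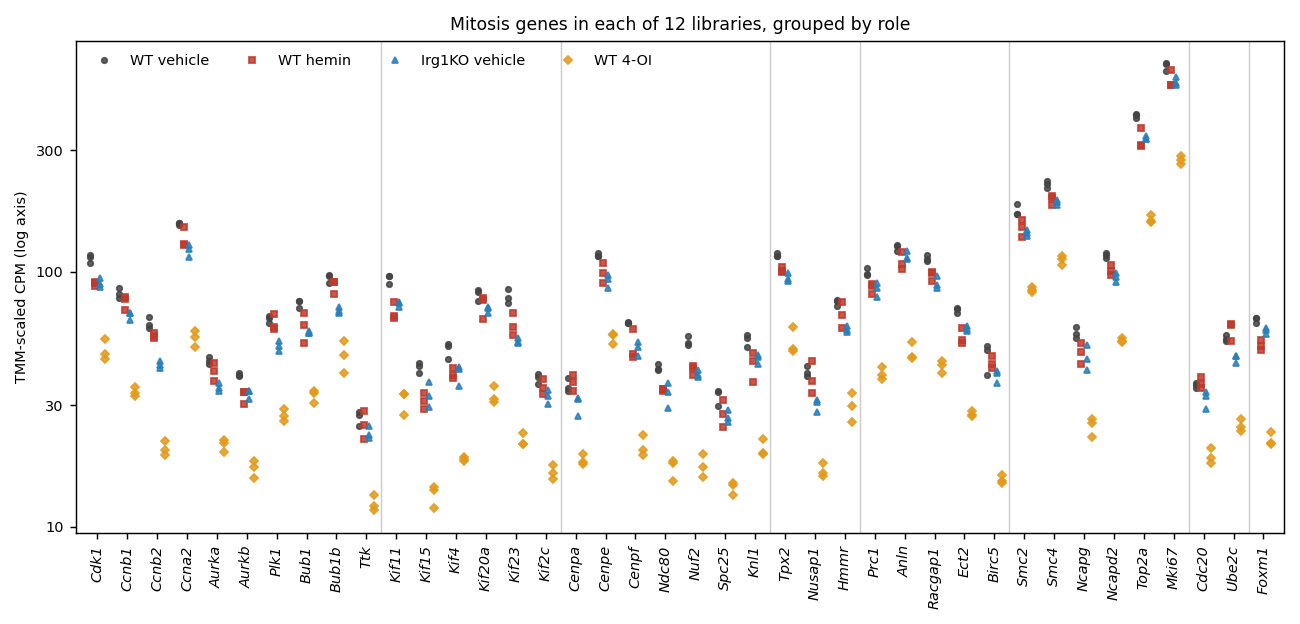
Each point is 1 library's TMM-scaled CPM (log axis) for 1 of the 40 mitosis genes, with 3 libraries per group and grey lines between roles. The 4-OI points lie below those of every other group for all 40 genes, while hemin and knockout points lie close under or among the vehicle points.

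With 4-OI, all 40 genes fell against vehicle (edgeR quasi-likelihood test, highest adjusted p = 1.76e-12), beside 25.0% of all tested genes called lower in that comparison and 50.4% called in either direction. The fall was 1.90-fold to 3.64-fold, at least 2-fold for 37 genes, with a median log2 fold change of -1.30 beside a median of -0.003 for all tested genes. The 3 libraries of 4-OI lay below the 3 of vehicle for all 40, a separation found in 28.3% of all tested genes.

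**Figure D2:**
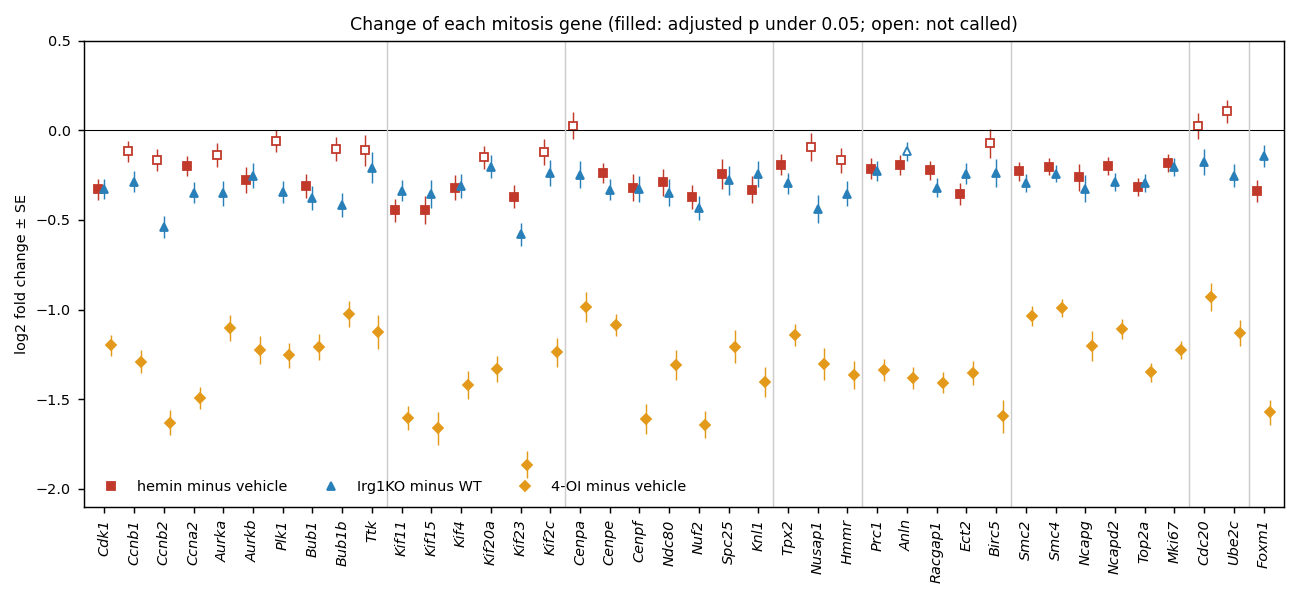
Log2 fold change of each mitosis gene with its SE in 3 comparisons with wild-type vehicle, filled where the adjusted p was under 0.05 and open where it was not. Changes with 4-OI run from -1.86 to -0.93, those in the knockout from -0.58 to -0.12 and those with hemin from -0.45 to 0.11. All 3 comparisons share the vehicle libraries.

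The 10 kinases and cyclins fell with 4-OI, with a median log2 fold change of -1.22. Cdk1, the catalytic kinase of mitotic entry, was at 108, 117 and 115 CPM with vehicle, 88.0, 90.7 and 91.0 CPM with hemin, 94.4, 89.4 and 86.9 CPM in the knockout and 54.4, 45.5 and 47.7 CPM with 4-OI. Hemin and knockout libraries overlapped each other and lay between vehicle and 4-OI, and the change with 4-OI was -1.20 (SE 0.06). Ccnb1, its cyclin B1 partner, was at 86.1, 81.8 and 78.9 CPM with vehicle, 79.8, 70.5 and 78.1 CPM with hemin, 69.1, 68.9 and 64.4 CPM in the knockout and 33.5, 32.5 and 35.3 CPM with 4-OI. No library gave Ccnb1 a whole expected count, as happens where reads are assigned to more than 1 gene, so its values are less certain. Its fold change was -1.29 (SE 0.06). Ccnb2, cyclin B2, had the largest fall of this role, -1.63 (SE 0.07), and was at 60.3, 66.4 and 62.0 CPM with vehicle, 57.6, 55.0 and 56.1 CPM with hemin, 43.2, 44.7 and 42.1 CPM in the knockout and 19.1, 21.7 and 20.1 CPM with 4-OI. Its knockout libraries also lay clear of both other non-4-OI groups. Ccna2, cyclin A2, which acts from S phase to early mitosis, changed similarly (-1.50, SE 0.06).

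Plk1, the polo-like kinase of spindle assembly and mitotic exit, was at 62.7, 66.8 and 66.0 CPM with vehicle, 68.3, 59.5 and 60.6 CPM with hemin, 51.0, 53.7 and 48.9 CPM in the knockout and 26.1, 27.3 and 28.9 CPM with 4-OI. Its hemin libraries overlapped vehicle, and its fall with 4-OI was -1.25 (SE 0.07). Aurkb, the Aurora kinase of the chromosomal passenger complex, was at 38.9, 39.9 and 39.5 CPM with vehicle, 33.8, 33.6 and 30.4 CPM with hemin, 33.9, 31.6 and 34.0 CPM in the knockout and 15.5, 17.2 and 18.1 CPM with 4-OI, a change with 4-OI of -1.23 (SE 0.08). Aurka, the Aurora kinase of spindle poles, changed by -1.10 (SE 0.07). Bub1, a kinase of the spindle checkpoint, was at 76.6, 77.1 and 72.0 CPM with vehicle, 69.1, 52.6 and 61.8 CPM with hemin, 57.6, 57.7 and 58.7 CPM in the knockout and 33.4, 30.7 and 34.0 CPM with 4-OI, and its partner Bub1b at 90.3, 95.9 and 97.1 CPM with vehicle, 91.0, 81.6 and 91.3 CPM with hemin, 70.2, 69.1 and 73.0 CPM in the knockout and 47.0, 40.1 and 53.6 CPM with 4-OI. Bub1 changed by -1.21 (SE 0.07) and Bub1b, the smallest fall of the role, by -1.02 (SE 0.07). Ttk, which encodes the checkpoint kinase MPS1, was the least abundant of these kinases by FPKM and changed by -1.12 (SE 0.10).

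Among roles of more than 1 gene, kinesins had the largest median fall with 4-OI, -1.51 over 6 genes. Kif23, a motor of the centralspindlin complex that organises the midzone for cytokinesis, had the largest fall of all 40 genes, -1.86 (SE 0.07). It was at 21.2, 23.2 and 21.04 CPM with 4-OI, against 75.4, 78.9 and 85.8 CPM with vehicle, 68.9, 56.5 and 60.8 CPM with hemin and 52.6, 53.0 and 54.8 CPM in the knockout. The knockout libraries of Kif23 were the lowest outside 4-OI, and no 2 groups overlapped. Kif11, the motor that pushes spindle poles apart, was at 96.5, 96.6 and 89.8 CPM with vehicle, 76.1, 65.7 and 67.0 CPM with hemin, 75.4, 76.4 and 72.6 CPM in the knockout and 33.2, 27.4 and 33.3 CPM with 4-OI, a change with 4-OI of -1.60 (SE 0.07). Kif15, which shares that work, changed by -1.66 (SE 0.09), and the chromosome-associated motor Kif4 by -1.42 (SE 0.08). Kif20a, a motor of the central spindle, was at 85.1, 83.2 and 76.8 CPM with vehicle, 77.6, 65.3 and 78.8 CPM with hemin, 72.8, 69.1 and 71.8 CPM in the knockout and 30.8, 31.6 and 35.7 CPM with 4-OI. Kif2c, a microtubule depolymerase that corrects attachments, had the smallest fall among kinesins, -1.24 (SE 0.08), and was at 16.2, 15.4 and 17.4 CPM with 4-OI, against 39.7, 38.6 and 36.2 CPM with vehicle, 38.0, 33.2 and 34.9 CPM with hemin and 34.5, 32.6 and 30.3 CPM in the knockout. For both, hemin overlapped vehicle and the knockout, and the knockout lay under vehicle; Kif20a changed by -1.33 (SE 0.07) with 4-OI.

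Kinetochore and centromere genes fell, with a median log2 fold change of -1.31 over 7 genes. Ndc80, the subunit that grips microtubules, was at 43.3, 41.3 and 41.5 CPM with vehicle, 34.6, 33.9 and 34.7 CPM with hemin, 36.6, 29.2 and 33.8 CPM in the knockout and 18.2, 15.2 and 17.8 CPM with 4-OI. Nuf2, its direct partner in the same complex, was at 51.6, 56.2 and 52.4 CPM with vehicle, 42.8, 39.5 and 41.8 CPM with hemin, 41.2, 38.5 and 39.2 CPM in the knockout and 17.1, 15.6 and 19.2 CPM with 4-OI. Both had hemin and knockout libraries between vehicle and 4-OI, and changed by -1.31 (SE 0.08) and -1.64 (SE 0.08). Spc25, of the other end of that complex, changed by -1.21 (SE 0.09), and Knl1, the scaffold that recruits the checkpoint kinases, by -1.41 (SE 0.08). Cenpa, the histone H3 variant that marks centromeres, had the smallest fall of the role, -0.98 (SE 0.08). It was at 34.98, 38.4 and 33.9 CPM with vehicle, 39.5, 34.0 and 36.9 CPM with hemin, 31.6, 31.9 and 27.1 CPM in the knockout and 17.6, 17.9 and 19.2 CPM with 4-OI, with hemin and vehicle overlapping. Cenpe, the kinetochore motor that brings chromosomes to the spindle equator, was at 119, 115 and 115 CPM with vehicle, 108, 90.2 and 99.2 CPM with hemin, 96.8, 93.7 and 86.7 CPM in the knockout and 51.9, 56.3 and 56.8 CPM with 4-OI, a change of -1.08 (SE 0.06) with 4-OI. The large kinetochore protein gene Cenpf changed by -1.61 (SE 0.08).

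Of the spindle assembly genes, Tpx2, which activates Aurora A on microtubules, was at 115, 118 and 115 CPM with vehicle, 101, 100.05 and 105 CPM with hemin, 98.6, 93.7 and 91.8 CPM in the knockout and 49.8, 48.7 and 60.9 CPM with 4-OI and changed by -1.14 (SE 0.06) with 4-OI. Hmmr, a spindle protein gene, was at 77.4, 76.7 and 73.7 CPM with vehicle, 76.3, 60.0 and 67.9 CPM with hemin, 61.5, 58.9 and 58.2 CPM in the knockout and 25.9, 29.7 and 33.6 CPM with 4-OI and changed by -1.37 (SE 0.08). The microtubule bundler Nusap1 changed by -1.30 (SE 0.09). The 3 libraries of 4-OI were below all 9 others for each of the 3 genes.

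The cytokinesis and passenger genes fell, with a median log2 fold change of -1.38 with 4-OI over 5 genes. Prc1, which bundles midzone microtubules, was at 98.2, 104 and 97.4 CPM with vehicle, 87.7, 82.1 and 89.1 CPM with hemin, 90.2, 86.1 and 79.9 CPM in the knockout and 37.8, 39.3 and 42.3 CPM with 4-OI. Birc5, survivin of the chromosomal passenger complex, was at 51.0, 39.2 and 49.2 CPM with vehicle, 46.6, 41.8 and 43.5 CPM with hemin, 40.9, 36.7 and 40.03 CPM in the knockout and 14.8, 15.1 and 16.0 CPM with 4-OI. Prc1 had the smallest and Birc5 the largest fall of this role, -1.33 (SE 0.06) and -1.59 (SE 0.09). The vehicle libraries of Birc5 overlapped those of hemin and of the knockout, and were themselves spread over 39.2 to 51.0 CPM. Anln, Racgap1 and Ect2, which organise and signal to the contractile ring, changed by -1.38, -1.41 and -1.35.

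Condensin and chromosome structure genes fell, with a median log2 fold change of -1.16 over 6 genes. Mki67, which encodes the proliferation marker Ki-67, was at 614, 658 and 650.3 CPM with vehicle, 617, 539 and 539 CPM with hemin, 578, 549 and 540.1 CPM in the knockout and 265, 273 and 285 CPM with 4-OI. Top2a, the topoisomerase that untangles sister chromatids, was at 414, 416 and 402 CPM with vehicle, 366, 312 and 314 CPM with hemin, 332, 330.2 and 342 CPM in the knockout and 168, 157 and 158 CPM with 4-OI. The knockout and the vehicle libraries did not overlap for either gene, and the changes with 4-OI were -1.23 (SE 0.05) and -1.35 (SE 0.05). The condensin core subunit Smc2 was at 184, 168 and 169 CPM with vehicle, 159, 137 and 149.8 CPM with hemin, 145, 141 and 138 CPM in the knockout and 84.5, 82.9 and 87.2 CPM with 4-OI. Its partner Smc4 was at 221, 228 and 214 CPM with vehicle, 198, 183 and 195 CPM with hemin, 188, 182 and 190.4 CPM in the knockout and 115, 106 and 113 CPM with 4-OI. Smc4 had the smallest fall of the role, -0.99 (SE 0.05), and Smc2 changed by -1.04 (SE 0.05). Ncapd2, a regulatory subunit of condensin I, was at 119, 114 and 117 CPM with vehicle, 106, 97.4 and 101 CPM with hemin, 99.1, 95.3 and 91.0 CPM in the knockout and 55.1, 52.8 and 53.7 CPM with 4-OI, a change of -1.11 (SE 0.06), and Ncapg, another such subunit, changed by -1.20 (SE 0.08). The 4 condensin genes thus lay between -1.20 and -0.99.

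Cdc20, the activator of the anaphase-promoting complex, had the smallest fall of all 40 genes, -0.93 (SE 0.08). It was at 35.8, 36.6 and 35.1 CPM with vehicle, 38.5, 35.05 and 36.3 CPM with hemin, 33.7, 32.6 and 28.8 CPM in the knockout and 17.8, 18.7 and 20.4 CPM with 4-OI. Ube2c, the ubiquitin-conjugating enzyme that works with that complex, was at 54.5, 53.6 and 56.4 CPM with vehicle, 61.6, 53.3 and 62.3 CPM with hemin, 46.9, 46.9 and 43.9 CPM in the knockout and 23.8, 26.5 and 24.6 CPM with 4-OI, a change of -1.13 (SE 0.07). Hemin and vehicle libraries overlapped for both. Foxm1, the transcription factor of late cell-cycle genes, was at 62.9, 66.0 and 66.0 CPM with vehicle, 54.2, 50.9 and 49.2 CPM with hemin, 60.3, 59.1 and 56.9 CPM in the knockout and 21.02, 21.3 and 23.5 CPM with 4-OI. It changed by -1.57 (SE 0.07) with 4-OI, and here hemin rather than the knockout was the second lowest group.

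Acod1, the gene named in the knockout label, was read first as a check of that label. It was at 7.25, 4.20 and 8.76 FPKM in the libraries labelled Irg1KO and at 11.3, 12.3 and 10.3 FPKM in wild-type vehicle. Reads of the gene were thus present in all 3 knockout libraries, and, with no source used here giving the deleted part, its level does not settle the label. In the libraries labelled Irg1KO, 39 of the 40 genes were called lower than in wild-type vehicle, beside 16.3% of all tested genes called lower and 39.8% called in either direction. Groups did not overlap for 38 of the 40, beside 22.4%. The changes were small, with a median of -0.30 beside 0 for all tested genes, and none reached 2-fold. The largest were in Kif23 (-0.58, SE 0.06) and Ccnb2 (-0.54, SE 0.06), followed by Nusap1 (-0.44, SE 0.08), Nuf2 (-0.43, SE 0.07) and Bub1b (-0.42, SE 0.07). Anln was not called (-0.12, SE 0.06, adjusted p = 0.0883). The calls of Ttk, Cdc20 and Foxm1 were at the threshold (adjusted p = 0.0498, 0.0499 and 0.0499) and were lost in 8, 7 and 7 of 15 alternatives. Median changes by role ran from -0.21 for Cdc20 and Ube2c to -0.35 for spindle assembly genes, apart from Foxm1 (-0.14, SE 0.06). The summed fibroblast and stromal markers were 10374 to 11636 CPM in the knockout libraries and 1714 to 2111 CPM in wild-type vehicle. Of the 10 markers, 8 were tested and 8 were higher in the knockout, with a median log2 fold change of 2.50, while Dcn and Lum had at most 9 and 4 counts in any library. Macrophage markers were 5 lower and 1 higher of 12, beside 16.3% and 23.5% of all tested genes, at sums of 26957 ± 1599.9 CPM in the knockout and 27206 ± 399 CPM in wild type. The part of the stromal markers in the lower mitosis genes was not tested.

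With hemin, 26 of the 40 genes were called lower and none higher, beside 7.74% of all tested genes called lower and 9.48% called higher. Groups did not overlap for 25, beside 14.9%. The median change was -0.21, against -0.006 for all tested genes, and the falls of called genes were from -0.45 to -0.18. All 6 genes of condensin and chromosome structure were called lower, as were 6 of 7 kinetochore genes and 4 of 6 kinesins. So were 4 of 5 of the cytokinesis role and Foxm1 (-0.34, SE 0.06). Kif11 and Kif15 fell most, at -0.45 (SE 0.06) and -0.44 (SE 0.08), followed by Nuf2 (-0.37, SE 0.07) and Kif23 (-0.37, SE 0.07). Of the 10 kinases and cyclins, 4 were called lower: Cdk1 (-0.33, SE 0.06), Bub1 (-0.31, SE 0.07), Aurkb (-0.28, SE 0.07) and Ccna2 (-0.20, SE 0.06). Called or not, all 10 of this role had negative changes, as did 37 of the 40 genes. The 14 genes not called were Ccnb1, Ccnb2, Aurka, Plk1, Bub1b, Ttk, Kif20a, Kif2c, Cenpa, Nusap1, Hmmr, Birc5, Cdc20 and Ube2c, with changes from -0.17 in Hmmr to 0.11 in Ube2c. Plk1 was at -0.06 (SE 0.06, adjusted p = 0.581), Cdc20 at 0.03 (SE 0.07, adjusted p = 0.872) and Ube2c at 0.11 (SE 0.07, adjusted p = 0.286). Whether called and uncalled genes differed from each other was not tested. The hemin libraries were not alike: replicate 1 was the highest of the 3 for 32 genes and replicate 2 the lowest for 34. Without replicate 2 the count of lower genes was 18, beside 671 of 12314 tested genes. Without replicate 1 it was 27, beside 916 of 12307, where the full fit had 940 of 12148.

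**Figure D3:**
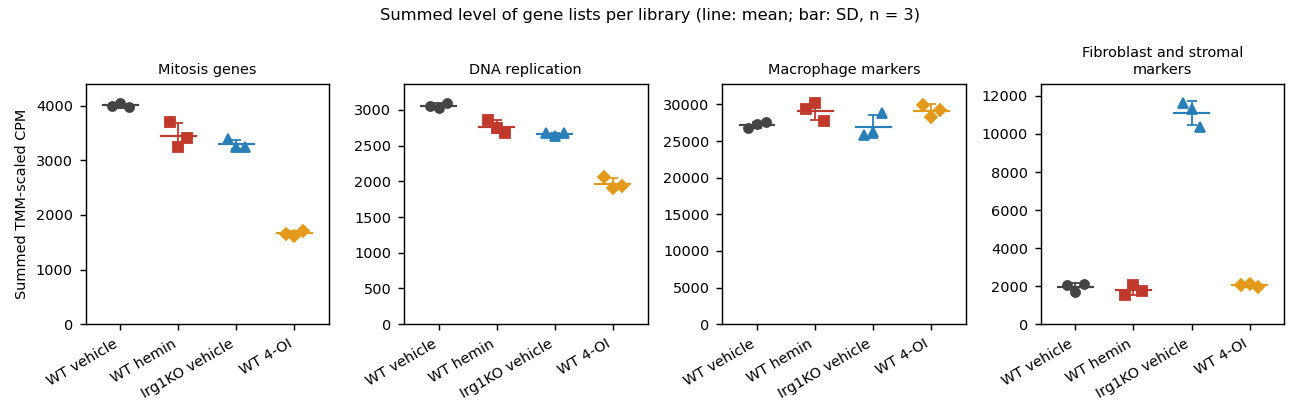
Summed TMM-scaled CPM of 4 gene lists in each library, with the group mean and SD (n = 3). The mitosis sum was 1661 ± 52.1 CPM with 4-OI and 4005 ± 40.5 CPM with vehicle, the DNA replication sum 1969 ± 83.6 and 3060.3 ± 37.9; the stromal marker sum was high in the knockout libraries only among these 4 groups.

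Levels with 4-OI were also set directly against the other groups, which tests whether its change from vehicle differed from that of hemin or of the knockout. Against hemin all 40 genes were lower, by a median of -1.09 and a range of -1.52 (Birc5) to -0.79 (Smc4), beside 21.7% of all tested genes called lower. Against the knockout all 40 were lower, by a median of -1.004 and a range of -1.43 (Foxm1) to -0.61 (Bub1b), beside 34.2%. The highest adjusted p among the 40 was 1.46e-10 and 1.33e-08. Groups did not overlap for any of the 40 in either comparison, as in 25.2% and 37.1% of all tested genes.

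Markers of macrophages and of other cell types were read in the same libraries. Macrophage marker sums were 29149 ± 848 CPM with 4-OI and 29109.5 ± 1218 CPM with hemin, with 4 lower and 4 higher of 12 with 4-OI and 2 lower and 5 higher with hemin. Of all tested genes, 25.0% were called lower and 25.4% higher with 4-OI, and 7.74% and 9.48% with hemin. Stromal sums were 2052 ± 103 and 1776 ± 243 CPM, beside 1966 ± 219 CPM with vehicle, and these 3 groups overlapped. Neutrophil marker sums were 87.0 ± 5.77 CPM with vehicle and 349.7 ± 10.9 CPM with 4-OI, with 2 of 5 tested called higher. These were Mmp8, at 313 CPM with 4-OI and 79.5 CPM with vehicle (log2 fold change 1.97 (SE 0.05)), and S100a8, at 31.2 and 2.39 CPM (log2 fold change 3.69 (SE 0.15)). The neutrophil granule genes Camp, Ltf and Retnlg had at most 6, 21 and 1 counts in any library. Cd79b, with at most 43 counts, was the highest of the 4 B and T cell markers matched, and Klf1, the erythroid marker matched, had at most 4. Endothelial marker sums were 36.1 ± 2.57 CPM with vehicle, 17.2 ± 0.849 with hemin, 31.8 ± 1.89 in the knockout and 9.46 ± 0.756 with 4-OI. Of these 4 markers, 2 were called lower and 0 higher with 4-OI, beside 25.0% and 25.4% of all tested genes. With hemin 1 was lower and 0 higher, beside 7.74% and 9.48%. Kdr made up most of the vehicle sum, at 28.6 CPM, and was at 4.98 CPM with 4-OI. With vehicle and 4-OI, Cdh5 was at 5.48 and 2.11 CPM, Pecam1 at 1.12 and 1.17 CPM, and Emcn at 0.878 and 1.19 CPM. The part of these markers in the mitosis results was not tested.

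Genes of the same machinery outside the 40 were counted from lists of their own, to be read beside the 25.0% of all tested genes called lower and 25.4% called higher with 4-OI. With 4-OI, the other mitotic kinases and phosphatases were 13 lower and 0 higher of 13 (median -1.18), led by the mitotic kinase gene Pbk (-1.89, SE 0.09) and by Melk (-1.63, SE 0.09). The other kinesins were 6 lower and 0 higher of 6 (median -1.23), with the minus-end motor Kifc1 at -1.16 and Kif14 at -1.63. Other passenger, spindle and cytokinesis genes were 16 lower and 0 higher of 16 (median -1.28), with Kntc1, of the kinetochore complex that brings dynein, at -1.23 and the spindle protein gene Spag5 at -1.53. Other kinetochore, centromere and checkpoint genes were 27 lower and 1 higher of 31 (median -1.01); Spdl1, a dynein adaptor, was at -1.37 and Hjurp, the chaperone of CENP-A, at -0.84. The exception that rose was Zwint (0.62, SE 0.05), a kinetochore gene named after its value was seen.

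Chromosome cohesion, proteolysis and replication lists had smaller median changes, again beside 25.0% of all tested genes called lower and 25.4% higher. Other condensin and cohesin genes were 14 lower and 0 higher of 17 (median -0.56), with the condensin subunit Ncaph at -1.09 and the cohesin core subunit Smc1a at -0.68. Anaphase-promoting complex genes were 10 lower and 0 higher of 17 (median -0.23), with Anapc5 at -0.54 and Fbxo5, which encodes the inhibitor EMI1, at -1.11. DNA replication genes were 20 lower and 0 higher of 21 (median -0.76), with Uhrf1, which guides maintenance DNA methylation, at -1.06 and the ribonucleotide reductase subunit Rrm1 at -0.94. All 3 medians were nearer to 0 than the -1.30 of the 40 mitosis genes.

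Regulators that act ahead of mitosis were counted in the same way, beside the same 25.0% of all tested genes called lower and 25.4% called higher with 4-OI. The DREAM, B-MYB and E2F list was 12 lower and 4 higher of 19 (median -0.29), with the repressor E2f8 at -1.15 (SE 0.07) and the pocket protein gene Rbl1 (p107) at -0.62 (SE 0.05). Mybl2 (B-MYB) was at -0.92 (SE 0.08) and Lin9, of the same complex, at -0.92 (SE 0.09), both named after their values were seen. G1 cyclins, kinases and inhibitors were 9 lower and 2 higher of 15 (median -0.24). Ccnd1, cyclin D1, which growth factor signals raise in G1, changed by -1.30 (SE 0.05), and Cdkn2c, an inhibitor of its kinases, by -1.81 (SE 0.08). Cdkn1a, the p21 inhibitor, also named after its value was seen, changed by -0.24 (SE 0.05). All regulators named here fell, which reflects the choice of genes to name, as the 4 and 2 genes called higher are not among them. The highest log2 fold change was 0.535 in the DREAM, B-MYB and E2F list and 1.086 in the G1 list.

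The lists were also counted in the other comparisons, and not all of them are given here. With hemin, where 7.74% of all tested genes were called lower and 9.48% higher, DNA replication genes were 10 lower and 0 higher of 21 (median -0.15), other kinetochore genes 8 lower and 0 higher of 31 (median -0.21), and other passenger, spindle and cytokinesis genes 6 lower and 0 higher of 16 (median -0.20). In the knockout, where 16.3% of all tested genes were called lower and 23.5% higher, the same 3 lists were 16 lower and 0 higher of 21 (median -0.19), 15 lower and 1 higher of 31 (median -0.21) and 9 lower and 0 higher of 16 (median -0.24). Of 13 other mitotic kinases and phosphatases, 5 were lower and 0 higher with hemin (median -0.195). In the knockout 9 of them were lower and 1 higher (median -0.303). Of 6 other mitotic kinesins, 3 were lower and 0 higher with hemin (median -0.214), and 5 and 0 in the knockout (median -0.318). The lists that follow had medians nearer to 0. Anaphase-promoting complex genes were 3 lower and 0 higher of 17 with hemin (median -0.03) and 2 lower and 2 higher in the knockout (median -0.03). The DREAM, B-MYB and E2F list was 3 lower and 1 higher of 19 with hemin (median -0.05) and 9 lower and 0 higher in the knockout (median -0.14). The G1 list was 3 lower and 0 higher of 15 with hemin (median -0.08) and 5 lower and 5 higher in the knockout (median -0.03). Ccnd1 changed by -0.38 (SE 0.05) in the knockout and by -0.24 (SE 0.05) with hemin. The knockout rise in Ccnd2, cyclin D2 (1.84, SE 0.07), and in Cdkn2b, an inhibitor of G1 kinases (2.31, SE 0.21), both named after their values were seen, stood in the libraries with high stromal markers; its relation to them was not tested.

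**Figure D4:**
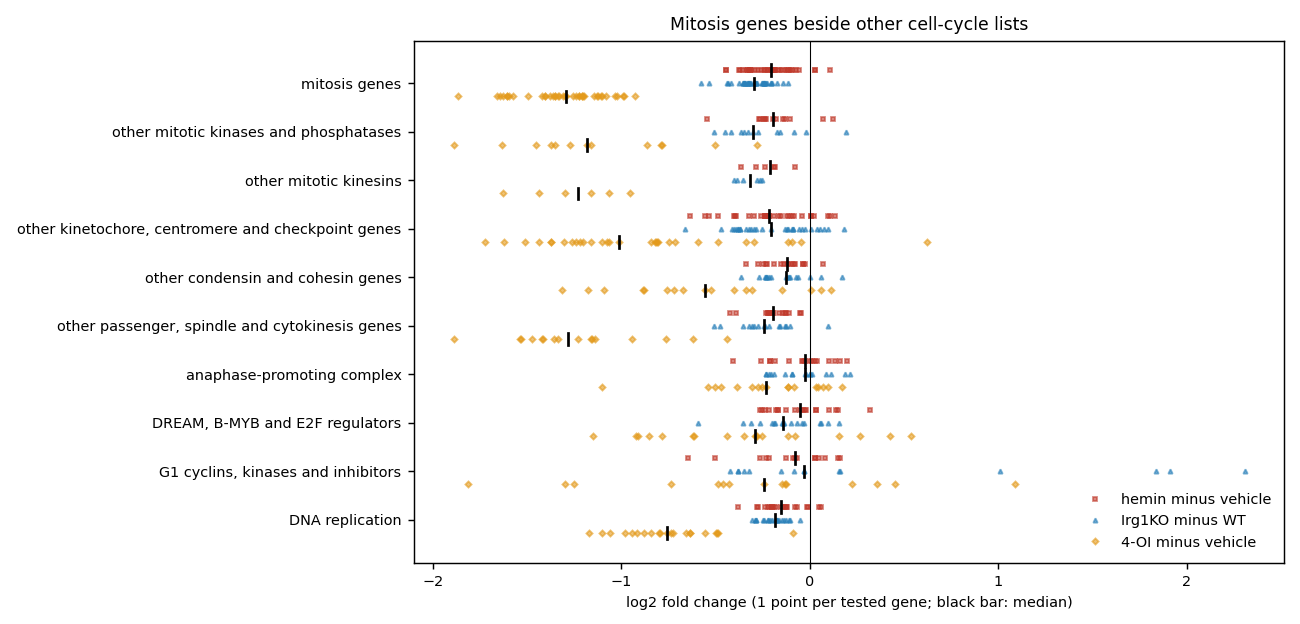
Log2 fold change of each tested gene in the mitosis list and 9 other cell-cycle lists, 1 point per gene and a black bar at each median, for 3 comparisons that share the vehicle libraries. With 4-OI the medians of the mitosis genes and of the other passenger, spindle and cytokinesis genes lie at -1.30 and -1.28 and that of the G1 list at -0.24.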

How the data were processed

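RNA was sequenced from 12 mouse macrophage libraries, and the labels gave each one's group (4 groups of 3), dose and hours. Per the submitters' processing notes, the tools were HISAT2, StringTie, Bowtie2 and RSEM, and GRCm39 and mm39 are the builds named; versions are not given in the sources used here. The deposited expected counts, per the file headers, are estimated reads or fragments per gene, and the authors' FPKM divide them by transcript length and library total. Per the file headers, the mean transcript length of each gene is given too; it was used only to check that group means of length differed by at most 1.051 times for any of the 40 genes. A gene not listed in a file was taken as 0.

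Expected counts were rounded to whole numbers and tested in R 4.3.3 with edgeR 4.0.16: filterByExpr (12148 genes left), TMM factors (0.944 to 1.05), all 12 libraries in 1 fit with a coefficient per group, and the robust quasi-likelihood F test. All 40 mitosis genes passed the filter. Adjusted p-values are Benjamini-Hochberg over all genes tested. The SE was taken from F, as the size of the log2 change over its root. The biological coefficient of variation was 4.71%, and chi-square per degree of freedom between replicates was 2.40 to 4.88, where pure counting noise has a value near 1. The fit was also run on simulated counts with planted changes, in which all genes shared the same spread. That is simpler than these data, so it does not vouch for the calls here.

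The members and lists were chosen with earlier results of these data known. Values in every library were given for 20 named genes and for the lowest and highest fold change of each role with 4-OI; of each other list, the 2 called genes with the lowest adjusted p at a mean of at least 5 CPM were named. The alternatives tried were DESeq2 1.42.0, RLE and upper-quartile factors, limma 3.58.1 on log2 of FPKM plus 1 or plus 0.1, a filter of 10 counts in 6 libraries or none at all, only the groups compared, a replicate block, and leaving out each replicate. Promoter sequences are from RefSeq, and for genes with more than 1 window the first listed was used. Plots were drawn with matplotlib 3.10.9 from tables handled in pandas 2.3.3 (Python 3.11.15). Annotation columns of the files were not used.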

Additional observations from a re-analysis of the deposited data

How the results depend on the processing

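With 4-OI, all 40 mitosis genes kept their call and direction against vehicle, hemin and the knockout in all 15 alternatives of each comparison. Beside them, 2682 to 4640, 2160 to 3528 and 3579 to 5357 of all tested genes (11607 to 16120 by setting) were called lower. Leaving out 1 replicate at a time gave 40 lower genes in each of these comparisons, 34 to 38 in the knockout and 18 to 27 with hemin. Of all tested genes (12229 to 12314), 1591 to 1844 and 671 to 916 were then lower in the knockout and with hemin. Over the other 9 alternatives the mitosis counts were 36 to 40 in the knockout and 25 to 29 with hemin. All-gene counts called lower were then 1853 to 2487 and 839 to 1422. No member was called higher under any alternative. The FPKM plus 0.1 setting is otherwise given here for the mitosis genes only. No shared effect of replicate number was seen, which does not show that the libraries were unpaired. Deviations from group means correlated at -0.079 to 0.067 over 18 same-numbered pairs, against -0.062 to 0.12 for other pairs. With the replicate block 40, 37 and 26 genes were lower with 4-OI, in the knockout and with hemin, beside 3059, 2015 and 976 of 12148 tested genes. The sign with hemin changed only for genes not called. Cenpa went from 0.03 to -0.03 with either FPKM alternative (-0.027 and -0.028) and to between -0.018 and 0.088 without 1 replicate, Cdc20 from 0.03 to -0.03 and -0.031 with FPKM and -0.006 to 0.055 without 1 replicate, and Birc5 from -0.07 to between -0.193 and 0.010 without 1 replicate. The cause was not tested. Called genes that lost their call in at least 1 alternative were Ttk, Cdc20, Foxm1, Birc5, Cenpa and Knl1 in the knockout and Spc25, Anln, Aurkb, Ccna2, Cenpe, Mki67, Ncapg, Prc1 and Tpx2 with hemin. Over all tested genes, FPKM with 1 added put the median log2 fold change with 4-OI at -0.105, where counts put it at -0.003, and gave 4608 lower and 1743 higher, where counts gave 3043 and 3083; the median of the 40 genes was then -1.33. With hemin that setting gave 1422 lower and 621 higher in place of 940 and 1152, and for 4-OI against hemin 3490 and 1726 in place of 2636 and 2500. For 4-OI against the knockout it gave 5357 and 1767, and only those 2 groups in the fit 3672 and 3644, in place of 4159 and 2852. The lowest count of any mitosis gene in a library was 108, for Ttk in a 4-OI library, a group outside the knockout comparison. In the knockout comparison Ttk had the largest SE (0.085) and Smc4 the smallest (0.047). Their counts were 283 and 2444 in wild-type vehicle replicate 3, and 291 and 2411 in knockout replicate 3. The part of depth in the calls near the threshold was not tested.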

Other observations

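The promoter pair of a CCAAT and a CHR form near the start was also looked for in genes outside every cell-cycle list used here, as a description with no test, chosen after the values of the 40 genes were seen. Of 266 such genes with both elements, 98 (36.8%) were called lower and 49 (18.4%) higher with 4-OI, with a median log2 fold change of -0.11. Of 9268 without the pair, 23.5% were lower and 26.0% higher. With hemin the shares called lower were 10.9% with the pair and 7.1% without it, and in the knockout 20.7% and 15.5%. Members of cell-cycle families missing from the lists may be among the 266, and their number was not counted.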
